A study of Mus musculus with 51 samples.

Results

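Molecular chaperones keep newly made and stress-damaged proteins folded, and the 92 genes described here are the heat shock proteins, their J-domain partners, the chaperonins, the BAG co-chaperones and the heat shock factors HSF1 and HSF2. They were chosen by gene symbol alone, as the protein-coding genes named Hspa, Hspb, Hspd, Hspe, Hsph, Hsp90, Hsf1, Hsf2, Dnaja to Dnajc, Cct2 to Cct8, Tcp1 or Bag1 to Bag6. They are 92 of 20831 protein-coding genes among 50600 gene IDs in the count tables, after 13 pseudogenes with matching names were left out. The study measured RNA by sequencing in cultured and in sorted mouse neutrophils, and open chromatin by ATAC-seq in the sorted ones. The cultured cells were ER-Hoxb8 neutrophils, progenitors immortalised by an estrogen-dependent Hoxb8 protein and then differentiated for 5 days without estrogen and with G-CSF. They received either zymosan, a yeast cell wall particle, at 50 µg/ml or the vehicle DMSO for 2 h.

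The cultured groups had 2 libraries each. The first set held cells labelled CEBPB-/- and JUNB-/- and wild-type (WT) cells, each with zymosan and with DMSO. A second set held cells labelled IRF5-/- and RELB-/- and a second pair of WT groups, again with zymosan and with DMSO. A later table held cells labelled RUNX1-/- and KLF6-/- with DMSO only, set against the DMSO libraries of the second WT set. How each knockout was made, and whether a line is a single clone, is not given in the sources used here, and nothing says that the 2 libraries of a group came from separate cultures. The p-values therefore measure only the spread between these libraries, which may be technical. The sorted cells were Ly6G+ neutrophils from CX3CR1GFP Ly6GCre-tdTomato mice in which zymosan, 100 µg per mouse, had been put into an air pouch under the skin on day 6 after the pouch was made. They were taken 4 h later from the pouch exudate (5 libraries), the pouch membrane (2), blood (5) and bone marrow (3), and no library came from a mouse without zymosan. Column names of these libraries carry a tag, 100 or 300, whose meaning was not established. Both membrane libraries carry 300 and all 3 bone marrow libraries 100, so tissue and tag cannot be told apart between them. Exudate and blood hold both tags.

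Chaperones work in families. The HSP70 proteins bind short greasy stretches of unfolded chains in a cycle driven by ATP, the DNAJ or J-domain proteins bring them clients and start ATP cleavage, and HSP110 and BAG proteins release the nucleotide so that the cycle can begin again. HSP90 takes over near-folded clients such as kinases and receptors, the ring-shaped chaperonins enclose whole proteins, and separate members serve the cytosol, the endoplasmic reticulum (ER) and the mitochondrion. HSF1 switches on the classical heat shock genes when unfolded proteins build up in the cytosol, whereas the unfolded protein response raises the ER members.

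Total counts per library lay between 19.4 M and 34.3 M in the cultured cells and between 9.24 M and 19.1 M in the sorted cells. The 92 genes held 0.293 to 0.715% of the counts in a cultured library and 0.0787 to 0.252% in a sorted one. After a filter on low counts 73 members were tested in each zymosan set, 72 in the later table and 66 in the sorted cells, and a member that failed the filter is not described as unchanged. Levels below are in CPM, a share of the library size after scaling within one table by the TMM method, so they are not comparable between tables: the same WT libraries of the second set read 277 and 279 CPM of Hspa5 in their own table and 411 and 412 CPM in the later table. Changes are log2 ratios ± standard error from edgeR's quasi-likelihood test, adjusted by the Benjamini-Hochberg method over all genes of the table and called at an adjusted p under 0.05.

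The genes named in the labels were not all lower. With DMSO, Cebpb read 536.8 and 510.1 CPM in cells labelled CEBPB-/-, against 478 and 536 CPM in WT cells (edgeR adjusted p = 0.503). Runx1 read 156 and 152 CPM in cells labelled RUNX1-/-, against 59.3 and 61.5 CPM in WT cells, and Klf6 read 851 and 852 CPM in cells labelled KLF6-/-, against 622 and 638 CPM in WT cells. Junb, Irf5 and Relb were lower in the cells with their label (log2 changes -0.85, -0.28 and -1.32), with none near 0. A count over a whole gene does not show whether its protein is made, so each line is named below by its label only. Neutrophil markers (9 genes such as S100a8 and Ly6g) were present in every group. Markers of eosinophils and mast cells (6 genes) differed with the labels as well: with DMSO they summed to 514 to 536 CPM in CEBPB-/-, 221 to 225 in JUNB-/- and 1635 to 1639 in WT cells of the first set, to 650.4 to 657.7 in IRF5-/-, 426 to 434 in RELB-/- and 3471 to 3538 in WT cells of the second set, and to 767 to 785 in RUNX1-/-, 621 to 632 in KLF6-/- and 5136 to 5249 in WT cells of the later table. The mast cell genes Mcpt4 and Fcer1a were at 0 in all 6 labelled lines and above 0 in WT cells, while the summed markers were above 0 in every line. The part of this difference in the chaperone results of the lines was not tested.

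At 2 h after zymosan, WT cells carried more RNA of the HSP70 and HSP90 families. Summed over the 14 HSP70 and HSP110 genes, levels averaged 3473 CPM (3433 and 3514) with zymosan, against 968 CPM (967 and 969) with DMSO in the first set, and 2613 against 606 CPM in the second. The summed HSP90 genes averaged 1447 CPM with zymosan, against 611 with DMSO in the first set, and 868 against 388 in the second. The summed TRiC or CCT chaperonin, which folds actin and tubulin, moved little, at 425 CPM with zymosan and 382 with DMSO in the first set and at 328 and 298 in the second. In the first set 36 of 73 tested members were higher with zymosan and 21 lower, which is 49.3% and 28.8% of them, where 35.7% of all tested genes were higher and 39.9% lower. In the second set 35 were higher and 22 lower, 47.9% and 30.1%, beside 36.3% and 32.1% of all genes. The members' median log2 change was 0.18 against -0.07 for all genes in the first set and 0.22 against 0.05 in the second.

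These splits depend on how libraries are scaled. When each library was scaled to its total count in place of TMM, the median of all genes moved by -0.70 in the first set and -0.87 in the second, and the split became 19 higher and 48 lower in the first and 16 higher and 51 lower in the second. In that scaling 12 members of the first set and 15 of the second turned from higher to lower. The HSP70 and HSP110 family then had 8 of 12 tested members higher and 3 lower in the first set, in place of 11 and 0, and 8 of 11 higher and 2 lower in the second, in place of 10 and 1. HSP90 had 2 higher and 1 lower in both, in place of 3 and 0, and CCT had 0 higher and 7 or 8 lower, in place of 5 and 2 in the first set and 4 and 3 in the second. Members named below as higher with zymosan in WT cells kept that call under both scalings in both sets unless the sentence says otherwise.

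The largest rise among the tested members was that of Hspa4l (ENSMUSG00000025757, chromosome 3), an HSP110-type partner that exchanges the nucleotide of HSP70. In the first set it read 849 and 821 CPM with zymosan and 36.7 and 36.4 with DMSO, a log2 change of 4.51 ± 0.04 (edgeR adjusted p = 8.00e-63). In the second set it read 972 and 955 CPM with zymosan and 73.4 and 71.7 with DMSO, a log2 change of 3.73 ± 0.03 (edgeR adjusted p = 2.87e-87). All zymosan libraries lay above all DMSO libraries, and the duplicates lay within a few percent of each other. Its paralogue Hspa4 changed far less, by 0.51 and 0.57 on the log2 scale, and turned lower when libraries were scaled to total counts.

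The mitochondrial and ER forms of HSP70 also rose. Hspa9, or mortalin, the HSP70 that pulls proteins into the mitochondrial matrix, read 369 and 356 CPM with zymosan and 71.2 and 68.1 with DMSO in the first set, a log2 change of 2.38 ± 0.04, and 205 and 206 with zymosan and 46.2 and 43.9 with DMSO in the second, a change of 2.19 ± 0.04. The mitochondrial chaperonin moved far less: Hspd1 (HSP60) changed by 0.08 ± 0.07 (edgeR adjusted p = 0.309) and 0.19 ± 0.07 (adjusted p = 0.0191), and its lid Hspe1 (HSP10) by 0.37 ± 0.14 (adjusted p = 0.019) and 0.17 ± 0.16 (adjusted p = 0.348), all with the sign turned under total-count scaling. Without single libraries the calls of Hspe1 in the first set (0.31 without WT DMSO replicate 2, 0.26 without WT zymosan replicate 2) and of Hspd1 in the second (0.14 without WT DMSO replicate 1, 0.03 and 0.08 without WT zymosan replicate 1 or 2) were lost. The Hspd1 call of the second set was also lost with DESeq2 (0.16), with no filter on low counts (0.04) and with only the groups compared in the fit (0.12). Of 9 other mitochondrial folding and protease genes, 2 were higher and 4 lower in the first set, and 4 higher and 4 lower in the second.

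Hspa5 (BiP, ENSMUSG00000026864, chromosome 2), the HSP70 of the ER lumen and the sensor partner of the unfolded protein response, read 1227 and 1180.3 CPM with zymosan and 340.2 and 346 with DMSO in the first set, a log2 change of 1.81 ± 0.03. In the second set it read 983 and 976 CPM with zymosan and 277 and 279 with DMSO, a change of 1.82 ± 0.02. The rises of both sets lay within their standard errors of each other, with no overlap between zymosan and DMSO libraries. Dnajb9, an ER J-domain protein that partners BiP, read 224 and 216 CPM with zymosan against 39.6 and 35.3 with DMSO in the first set (2.55 ± 0.05), and 84.1 and 88.2 against 31.6 and 32.4 in the second (1.43 ± 0.05). Hspa13, a short HSP70 of the microsomes, changed by 2.19 ± 0.05 and 2.53 ± 0.05.

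Other ER members moved less or the other way. Hsp90b1, the ER form of HSP90, read 239 and 236 CPM with zymosan and 177 and 179 with DMSO in the first set (0.41 ± 0.04) and 189 and 196 with zymosan and 118 and 123 with DMSO in the second (0.68 ± 0.03), and both changes turned negative under total-count scaling. Dnajc3, an ER co-chaperone that also restrains the kinase PERK, changed by -0.31 and -0.27. Among 19 further ER folding and unfolded protein response genes, 13 were higher and 2 lower in the first set, and 16 higher and 2 lower in the second. Herpud1, which takes part in ER-associated degradation, was higher in both (1.97 and 1.21), and Eif2ak3, which encodes PERK, was lower in both (-2.17 and -2.69). Xbp1, the transcription factor activated by IRE1, was lower in the first set (-1.68) and higher in the second (0.27). The second value is smaller in size than the -0.87 by which total-count scaling moved the median of all genes there. Values and counts of listed genes that are not members are given under TMM scaling only throughout.

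Hspa5, Hsp90b1 and Dnajc3 share a promoter element. In RefSeq promoter sequences of GRCm38.p6, 250 bases before to 50 after each gene's start, the ER stress element was searched as CCAAT and CCACG separated by 9 free bases on either strand, a motif chosen after the values were known. It was found in 3 of the 75 members with a promoter sequence (4%) and in 29 of 17492 protein-coding genes (0.166%). The matches with 20 bases on each side are printed because these are the 3 members that hold it; the element is in capitals, and a match is a description of letters and not a measured binding site.
Hspa5, chr2:34772005-34772063 (+): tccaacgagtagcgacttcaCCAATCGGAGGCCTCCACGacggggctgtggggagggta
Dnajc3, chr14:118937807-118937865 (+): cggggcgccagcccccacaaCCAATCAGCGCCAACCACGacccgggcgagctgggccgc
Hsp90b1, chr10:86705513-86705676 (-): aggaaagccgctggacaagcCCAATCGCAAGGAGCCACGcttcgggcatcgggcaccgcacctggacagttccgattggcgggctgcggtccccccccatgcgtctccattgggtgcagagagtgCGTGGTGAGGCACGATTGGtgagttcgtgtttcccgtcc

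The cytosolic HSP90 genes both rose. Hsp90aa1 (ENSMUSG00000021270, chromosome 12), the stress-inducible form, read 623 and 626 CPM with zymosan and 185 and 180.2 with DMSO in the first set (1.77 ± 0.04) and 247 and 239.9 with zymosan and 57.8 and 62 with DMSO in the second (2.02 ± 0.03). Hsp90ab1, the constitutive form, rose less, by 1.23 ± 0.03 and 1.06 ± 0.02. Their 15 listed co-chaperones were split, with 7 higher and 7 lower in the first set and 8 and 7 in the second, and of 6 prefoldin subunits, which hand actin and tubulin to CCT, 1 was higher and 2 lower in the first set and 1 and 0 in the second.

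Hspa8, the constitutive cytosolic HSP70, read 730.4 and 723 CPM with zymosan against 342 and 344 with DMSO in the first set (1.08 ± 0.03) and 176 and 178 against 92.3 and 90.8 in the second (0.95 ± 0.03). The heat-inducible Hspa1a (ENSMUSG00000091971) and Hspa1b (ENSMUSG00000090877), neighbours on chromosome 17, were far lower in level. Hspa1a read 28 and 29.9 CPM with zymosan and 9.77 and 10.9 with DMSO in the first set (1.49 ± 0.09) and 4.15 and 4.67 with zymosan and 1.18 and 1.69 with DMSO in the second (1.61 ± 0.24). Hspa1b changed by 1.25 ± 0.08 and 1.45 ± 0.21. The 2 genes are near-identical, and the counts hold uniquely placed reads only, so shared reads are lost and each value rests on the parts that differ; with their counts summed, the change was 1.36 in the first set and 1.53 in the second. Hspa1l, a relative in the same cluster, read 0.686 and 0.611 CPM with zymosan and 0.118 and 0.103 with DMSO in the first set (2.49 ± 0.58) and was not tested in the second.

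J-domain genes of the DNAJB class led the remaining rises. Dnajb4, a cytosolic partner of HSP70, read 51.9 and 52.7 CPM with zymosan and 5.69 and 4.98 with DMSO in the first set (3.29 ± 0.08) and 42.8 and 41.5 with zymosan and 9.71 and 9.07 with DMSO in the second (2.17 ± 0.07). Dnajb2, which steers clients to the proteasome, changed by 2.97 ± 0.07 and 2.49 ± 0.07, and Dnajc12, which binds aromatic amino acid hydroxylases, by 2.24 ± 0.18 and 2.15 ± 0.15. In the DNAJB class 6 of 9 tested members were higher and 3 lower in the first set, and 6 of 10 higher and 2 lower in the second, or 5 and 4, and 4 and 4, under total-count scaling. Dnajb1, the main heat-inducible J-domain protein, changed by 0.84 ± 0.05 and 0.82 ± 0.05, and Dnaja1, its class A counterpart, by 0.78 ± 0.04 and 0.78 ± 0.04; both turned to slightly negative values in the second set under total-count scaling.

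Most DNAJC genes with a call were lower, 12 of 24 tested against 4 higher in the first set and 13 against 6 in the second. Of all tested genes, 39.9% were lower and 35.7% higher in the first set, and 32.1% and 36.3% in the second. Under total-count scaling 21 DNAJC genes were lower and 2 higher in each set. The largest fall was that of Dnajc28, a little-studied J-domain gene, at 0.183 and 0.324 CPM with zymosan and 3.91 and 3.6 with DMSO in the first set (-3.82 ± 0.29) and 0.439 and 0.589 with zymosan and 3.81 and 4.49 with DMSO in the second (-3.00 ± 0.25). Dnajc30, a mitochondrial protein, changed by -1.92 ± 0.16 and -1.97 ± 0.17, and Dnajc16 by -1.83 ± 0.11 and -1.65 ± 0.13. Bag4, which binds the death domain of TNF receptor 1, changed by -1.52 and -1.18, and Dnajc7, which links HSP70 with HSP90, by -1.22 and -0.88. These falls held under both scalings.

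Neither heat shock factor was called higher with zymosan. Hsf1, the master factor of the heat shock response, read 5.53 and 7.59 CPM with zymosan and 12.9 and 14 with DMSO in the first set (-1.01 ± 0.11) and 4.15 and 3.63 with zymosan and 5.8 and 6.48 with DMSO in the second (-0.66 ± 0.15, edgeR adjusted p = 5.03e-05). Hsf2 changed by 0.22 ± 0.22 (adjusted p = 0.365) and -0.57 ± 0.32 (adjusted p = 0.113). The remaining genes of the core set stood as follows. Hsph1 (HSP105) changed by 0.44 and 0.76, Tcp1 by 0.62 and 0.74, Cct2 by 0.29 and 0.29 and Cct5 by 0.11 and 0.02, and each of these turned negative under total-count scaling. Leaving out WT DMSO replicate 2 or either WT zymosan library ended the Cct5 call of the first set (0.11, 0.09 and 0.14), as did fitting with no filter on low counts (0.06), and leaving out WT zymosan replicate 2 ended the Cct2 call of the second (0.14). Of the BAG co-chaperones, Bag1 changed by -0.15 (adjusted p = 0.00756) and -0.10 (adjusted p = 0.0907) and Bag6 by 0.27 and 0.17, the Bag6 values turning negative under total-count scaling. The Bag1 call of the first set was lost without WT DMSO replicate 2 (-0.12) or WT zymosan replicate 1 (-0.11), with RLE scaling (-0.02), with DESeq2 (-0.02) and with only the groups compared in the fit (-0.12). Bag6 of the second set read -0.0014 without WT zymosan replicate 1 and lost its call with no filter on low counts (0.02). Bag3, a heat-inducible partner of HSP70 in selective autophagy, rose by 1.01 ± 0.14 in the first set and had a change of 0.22 ± 0.19 in the second (adjusted p = 0.301), which turned negative under total-count scaling. Hspb1 (HSP27) had 0 counts in all libraries of the first set and 5 counts in all those of the second and was not tested.

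**Figure D1:**
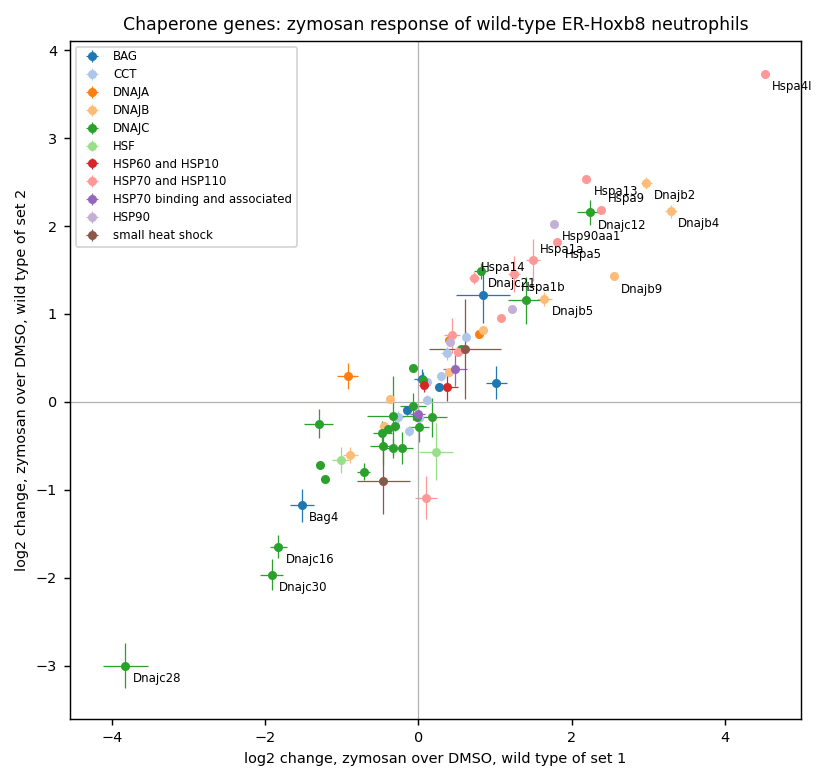
Log2 change with zymosan over DMSO of each member tested in both WT sets, first set on the x axis and second set on the y axis, coloured by family, with bars of ± 1 standard error. Hspa4l stands at the upper right with 4.51 and 3.73, and Dnajc28 at the lower left with -3.82 and -3.00.

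The responses of the WT sets, which share no library, lay along one line in that plot. Of 72 members tested in both, 31 were higher in both, 17 lower in both and 0 called in opposite directions. Across these 72 genes Pearson's r between the log2 changes was 0.941 and Spearman's rho 0.915, beside r = 0.843 across the 12395 genes tested in both sets. Genes are not independent replicates, and both sets share the treatment and the scaling method.

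Per length of gene, Hspa5 and Hsp90ab1 were the most abundant chaperone RNAs with either treatment in both WT sets, and Hspa5 came first with zymosan. On the RPKM scale (CPM divided by gene length in kilobases), the first WT set with zymosan was led by Hspa5 at 285 ± 7.73 (SD, n = 2), Hsp90ab1 at 195 ± 3.77, Hspa8 at 169 ± 1.25 and Hsp90aa1 at 159 ± 0.51, followed by Hspa9 at 92.1 ± 2.38. With DMSO the same set was led by Hsp90ab1 at 83.4 ± 1.06, Hspa5 at 81.2 ± 1.03 and Hspa8 at 79.8 ± 0.36 RPKM, neighbours within a few RPKM of each other, followed by Hsp90aa1 at 46.5 ± 0.93. In the second set with zymosan the order was Hspa5 at 232 ± 1.21, Hsp90ab1 at 144 ± 0.45 and Hspa4l at 81.7 ± 1.01 RPKM. With DMSO the second set was led by Hsp90ab1 at 69.3 ± 0.94 and Hspa5 at 65.6 ± 0.31 RPKM. Bag1, an HSP70 nucleotide exchange factor, followed there at 35.3 ± 0.62.

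The zymosan response was then read in the 4 labelled lines that had both treatments. In cells labelled CEBPB-/- 33 members were higher and 24 lower (45.2% and 32.9%, beside 35.1% and 38.4% of all genes). In JUNB-/- cells 33 were higher and 25 lower (45.2% and 34.2%, beside 36.5% and 36.7%). In IRF5-/- cells 29 were higher and 27 lower (39.7% and 37%, beside 34.3% and 35.4%), and in RELB-/- cells 32 were higher and 24 lower (43.8% and 32.9%, beside 35.2% and 37.5%). Under total-count scaling these splits were 14 and 48, 23 and 40, 15 and 51, and 15 and 51. HSP90 had 3 of 3 members higher in each of the 4 lines, or 2 of 3 under total-count scaling. The HSP70 and HSP110 family had 8 higher and 1 lower in CEBPB-/-, 10 and 1 in JUNB-/-, 9 and 0 in IRF5-/- and 8 and 1 in RELB-/- cells, which became 5 and 2, 10 and 1, 6 and 3, and 5 and 3 under total-count scaling.

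Hspa4l was again the largest rise in each line. In CEBPB-/- cells it read 1337 and 1353 CPM with zymosan and 11.8 and 11.7 with DMSO (6.84 ± 0.05), and in JUNB-/- cells 449 and 441 with zymosan and 10.1 and 11 with DMSO (5.40 ± 0.05). In IRF5-/- cells it read 1013 and 987 CPM with zymosan and 41.6 and 45.7 with DMSO (4.52 ± 0.03), and in RELB-/- cells 1074 and 1088 with zymosan and 49.5 and 49.3 with DMSO (4.45 ± 0.03). The DMSO level was lower than in WT cells of the same set in all 4 lines. With zymosan both JUNB-/- libraries lay below those of WT. Both libraries of each other line lay above those of WT, in IRF5-/- cells by little. The response itself was larger than that of WT cells in all 4 lines: the difference of the log2 changes was 2.33 ± 0.07 in CEBPB-/- (edgeR adjusted p = 3.32e-36), 0.89 ± 0.07 in JUNB-/-, 0.78 ± 0.04 in IRF5-/- and 0.72 ± 0.04 in RELB-/- cells. The lines of one set share their WT libraries, so these differences are not independent of each other.

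**Figure D2:**
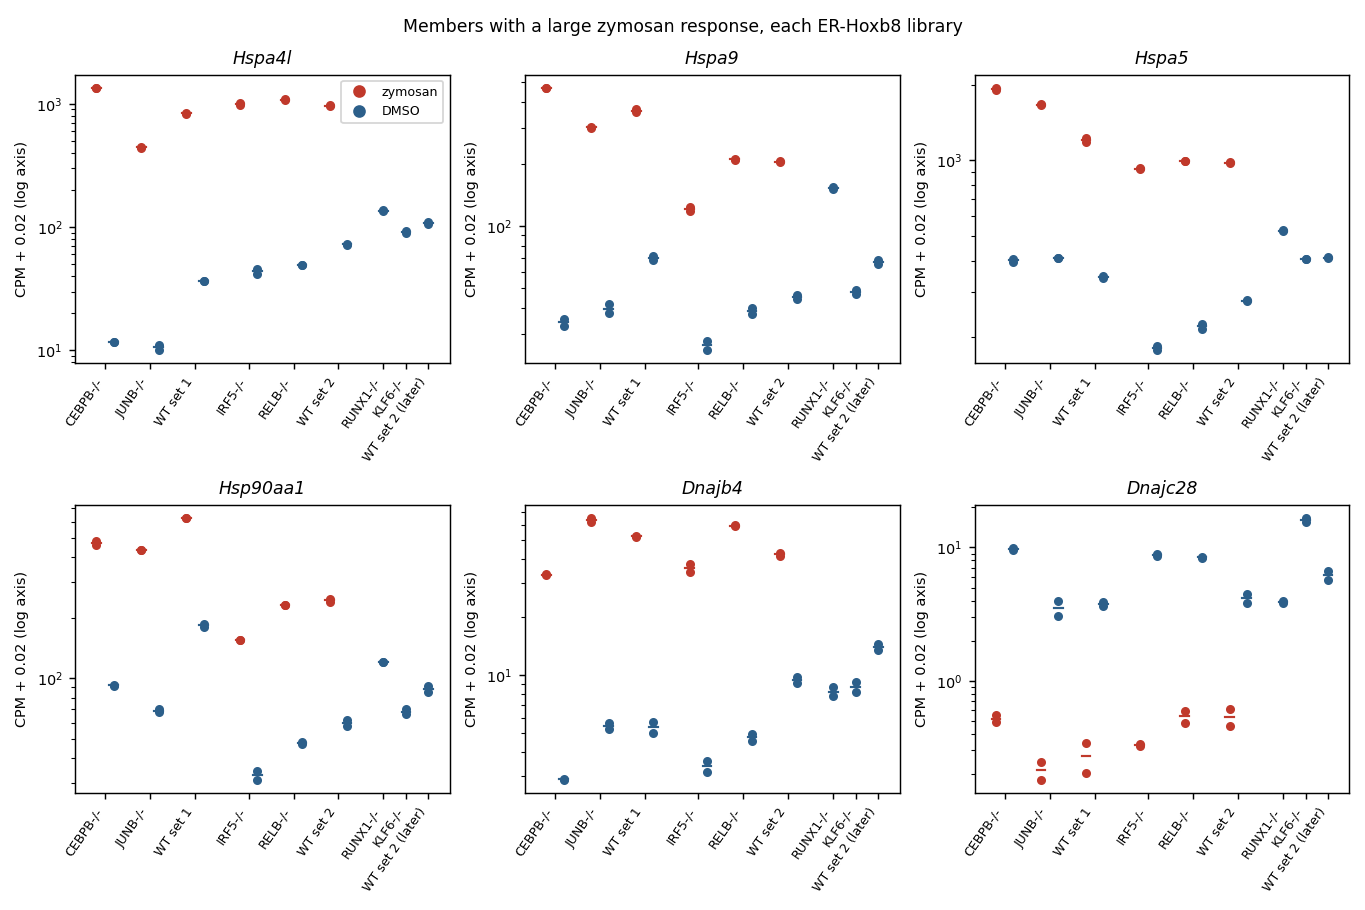
CPM plus 0.02 on log axes of 6 members with large responses in every cultured library (red, zymosan; blue, DMSO), with a dash at each group mean. Hspa4l, Hspa9, Hspa5, Hsp90aa1 and Dnajb4 are higher with zymosan in every line and Dnajc28 is lower; the last 3 groups belong to the later table, which has DMSO only and its own scale.

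Over all members, the response differed from that of WT cells in 31 of 73 in CEBPB-/- cells (20 with a more positive and 11 with a more negative change, beside 41% of all genes), in 34 in JUNB-/- (22 and 12, beside 43.6%), in 31 in IRF5-/- (14 and 17, beside 33.3%) and in 31 in RELB-/- cells (15 and 16, beside 31.4%). As a share, 31 of 73 members is 42.5% and 34 of 73 is 46.6%, near the background in the first set and above it in the second; the gap was not tested. Total-count scaling gave 11 and 25 in CEBPB-/-, 23 and 10 in JUNB-/-, 11 and 21 in IRF5-/- and 14 and 17 in RELB-/- cells, and RLE scaling gave 18 and 16 in JUNB-/- cells.

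In CEBPB-/- cells Hspa9 read 466 and 469 CPM with zymosan and 35.3 and 32.7 with DMSO, a log2 change of 3.78 ± 0.05 that exceeded that of WT cells by 1.4 ± 0.06. The zymosan and DMSO libraries lay far apart, and the DMSO libraries lay below those of WT. Hspa2, an HSP70 best known from sperm formation, went the other way: it read 1.6 and 1.25 CPM with zymosan and 8.12 and 7.32 with DMSO in CEBPB-/- cells (-2.42 ± 0.21), and 4.25 and 4.68 with zymosan and 3.91 and 4.47 with DMSO in WT cells (0.10 ± 0.14, edgeR adjusted p = 0.524), a difference of -2.52 ± 0.26. Other differences from WT were 1.63 for Dnajc12, 1.48 for Dnajc21, which works in ribosome assembly, 1.29 for Hspa13, -1.14 for the histone chaperone Dnajc9 and -1.10 for Dnajc25, whose call was lost without CEBPB-/- zymosan replicate 1 (-0.60). Largest among the responses themselves, beside Hspa4l and Hspa9, were Dnajc28 (-4.26), Dnajc12 (3.87), Dnajb4 (3.53), Hspa13 (3.48), Dnajb2 (3.25) and Dnajc30 (-2.62).

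In JUNB-/- cells the HSP110 gene Hsph1 read 2.4 and 3.2 CPM with zymosan and 0.369 and 0.445 with DMSO (2.79 ± 0.29), against 15.4 and 15.1 with zymosan and 11.6 and 10.9 with DMSO in WT cells (0.44 ± 0.10, which turned negative under total-count scaling). The difference of the responses was 2.35 ± 0.32 (edgeR adjusted p = 6.95e-09), while every JUNB-/- library, with either treatment, lay below every WT library. Dnaja1 read 357 and 356 CPM with zymosan and 109 and 114 with DMSO in JUNB-/- cells, a response 0.89 ± 0.05 larger than that of WT. Further differences were -1.95 for Hsf2, -1.77 for Hspa2, -1.13 for Dnajc12, 1.02 for Hspe1 and 0.89 for Hspbap1, which enters by its symbol only. The call of Hsf2 was lost without either JUNB-/- DMSO library (-2.06 and -2.07), JUNB-/- zymosan replicate 2 (-1.28) or WT zymosan replicate 2 (-1.90), and that of Hspe1 without JUNB-/- DMSO replicate 2 (0.68) or zymosan replicate 2 (0.81). DESeq2 called neither (-2.10 for Hsf2 and 0.92 for Hspe1). Hspa1a had 5 and 5 counts with zymosan and 1 and 0 with DMSO in JUNB-/- cells, too few for a size of change. The other large responses there were Dnajc28 (-4.12), Dnajb4 (3.55), Hspa9 (2.92), Hsp90aa1 (2.66) and Dnajb9 (2.53).

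In IRF5-/- and RELB-/- cells the response of the CCT ring was lower than in WT cells for 5 of 8 tested subunits in each line and higher for 0, and that of HSP90 was higher for 3 of 3 in each; under total-count scaling the subunits numbered 7 in IRF5-/- and 5 in RELB-/- cells, and the HSP90 genes 2 and 3. Cct6a differed from WT by -0.96 in IRF5-/- and -0.81 in RELB-/- cells, and Cct3 by -0.98 in IRF5-/- cells. Dnajb4 read 37.4 and 33.9 CPM with zymosan and 3.11 and 3.56 with DMSO in IRF5-/- cells, and 59.3 and 59.6 with zymosan and 4.5 and 4.94 with DMSO in RELB-/- cells. Its response exceeded that of WT by 1.25 ± 0.13 in IRF5-/- and 1.49 ± 0.12 in RELB-/- cells, with lower DMSO libraries in both lines than in WT. The Bag4 response differed from that of WT by -1.85 in IRF5-/- and -1.09 in RELB-/- cells, and that of Dnaja3, a mitochondrial J-domain protein, by -0.98 and -1.05, of which the IRF5-/- call was lost without IRF5-/- zymosan replicate 1 (-0.77).

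Remaining differences from WT were -1.80 for Dnajc28, -1.08 for Dnajc27 and -0.89 for Hspd1 in IRF5-/- cells. In RELB-/- cells they were -1.63 for Hspb6 (HSP20), -0.82 for Dnajc9 and -0.67 for Dnajc17. Several of these calls were lost in other fits. A fit without 1 library leaves 1 in that group, so a call can be lost with little change in size. Without WT zymosan replicate 2 the Dnajc28 difference was -1.46, and that of Dnajc9 was -0.55 and -0.58 without RELB-/- or WT zymosan replicate 2. Dnajc27 lost its call without IRF5-/- DMSO replicate 1 (-0.56), either IRF5-/- zymosan library (-0.97 and -0.99), WT DMSO replicate 1 (-0.92) or WT zymosan replicate 2 (-0.83). Hspb6 lost it without any library of the RELB-/- cells (-1.5 to -1.65), WT DMSO replicate 1 (-1.5) or WT zymosan replicate 1 (-1.12), and Dnajc17 without RELB-/- DMSO or zymosan replicate 2 (-0.64 and -0.42), WT DMSO replicate 2 (-0.61) or either WT zymosan library (-0.56 and -0.55). DESeq2 called none of Dnajc27 (-1.04), Dnajc9 (-0.74), Hspb6 (-1.57) and Dnajc17 (-0.59), Hspb6 (-1.54) and Dnajc17 (-0.58) lost their calls with no filter on low counts, and Dnajc17 did so with only the groups compared in the fit (-0.55). Hspa5, at 931 and 921 CPM with zymosan and 183 and 177 with DMSO in IRF5-/- cells, had a response 0.54 ± 0.03 larger than that of WT, with the DMSO libraries below those of WT. Among the largest responses of both lines were also Hspa13 (3.34 in IRF5-/- and 3.02 in RELB-/- cells) and Dnajb2 (2.84 and 2.47). Dnajc28 fell by 4.80 in IRF5-/- and 4.02 in RELB-/- cells, Bag4 fell by 3.03 in IRF5-/- cells, and Dnajc12 rose there by 2.79. Hspa9 rose by 2.43 in RELB-/- cells, where Hspb6 fell by 2.53. Dnajb13 had 2 counts with zymosan and 29 with DMSO in IRF5-/- cells, a ratio of 7.03 (95% counting interval 1.78 to 60.8), and Dnajc18 had 1 count with zymosan and 14 with DMSO in RELB-/- cells, a ratio of 8.14 (1.24 to 344), both lower with zymosan. DESeq2 called neither, and edgeR's calls were lost for Dnajb13 without IRF5-/- zymosan replicate 2 and for Dnajc18 without RELB-/- DMSO replicate 2 or zymosan replicate 1.

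With DMSO alone, the tested member farthest below WT cells was Hspa1a in each of the 6 labelled lines. Hspa1a had 0 and 0 counts in CEBPB-/-, 1 and 0 in JUNB-/- and 415 and 423 in WT libraries of the first set. In the second set it had 3 and 1 counts in IRF5-/-, 0 and 1 in RELB-/- and 45 and 72 in WT libraries. RUNX1-/- libraries had 1 and 0 counts and KLF6-/- libraries 0 and 0, against the same WT libraries. Thus Hspa1a was near 0 in every labelled line and in no WT library, with no overlap.

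Against a floor of 3 counts over the group, Hspa1a was at least 202-fold lower in CEBPB-/- and at least 34.3-fold lower in KLF6-/- cells. With 1 count in the group, the ratio was 584 in JUNB-/- (95% counting interval 105 to 23101), 116 in RELB-/- (20.4 to 4628) and 149 in RUNX1-/- cells (26.2 to 5923), all lower than WT. In IRF5-/- cells, with 4 counts, the log2 change was -4.61 ± 0.50 (edgeR adjusted p = 4.63e-13). Zymosan did not bring it back to the WT range: it had 0 and 0 counts in CEBPB-/-, 5 and 5 in JUNB-/- and 613 and 831 in WT cells of the first set with zymosan, and 4 and 4 in IRF5-/-, 1 and 2 in RELB-/- and 85 and 103 in WT cells of the second.

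The neighbour Hspa1b behaved less evenly. It read 0.101 and 0.0684 CPM in CEBPB-/-, 4.33 and 3.15 in JUNB-/- and 13.2 and 14.9 in WT cells of the first set (-7.29 ± 0.25 and -1.89 ± 0.12). In the second set it read 0.821 and 0.535 in IRF5-/-, 0.734 and 0.735 in RELB-/- and 1.36 and 2.19 in WT cells (-1.4 ± 0.27 and -1.28 ± 0.26). The later table gave 2.33 and 2.51 CPM in RUNX1-/-, 0.495 and 0.925 in KLF6-/- and 2.01 and 3.23 in WT cells, a change of -0.13 ± 0.22 in RUNX1-/- (edgeR adjusted p = 0.609) and -1.90 ± 0.31 in KLF6-/- cells. So in RUNX1-/- cells Hspa1a was near 0 while the Hspa1b libraries lay within the range of the WT libraries. Both promoters hold the same pair of heat shock units, which is printed to show how alike the 2 genes are at their starts; the pair is in capitals.
Hspa1a, chr17:34972233-34972280 (-): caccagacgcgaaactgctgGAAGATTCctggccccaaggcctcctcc
Hspa1b, chr17:34959315-34959362 (-): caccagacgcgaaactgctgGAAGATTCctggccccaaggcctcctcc

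**Figure D3:**
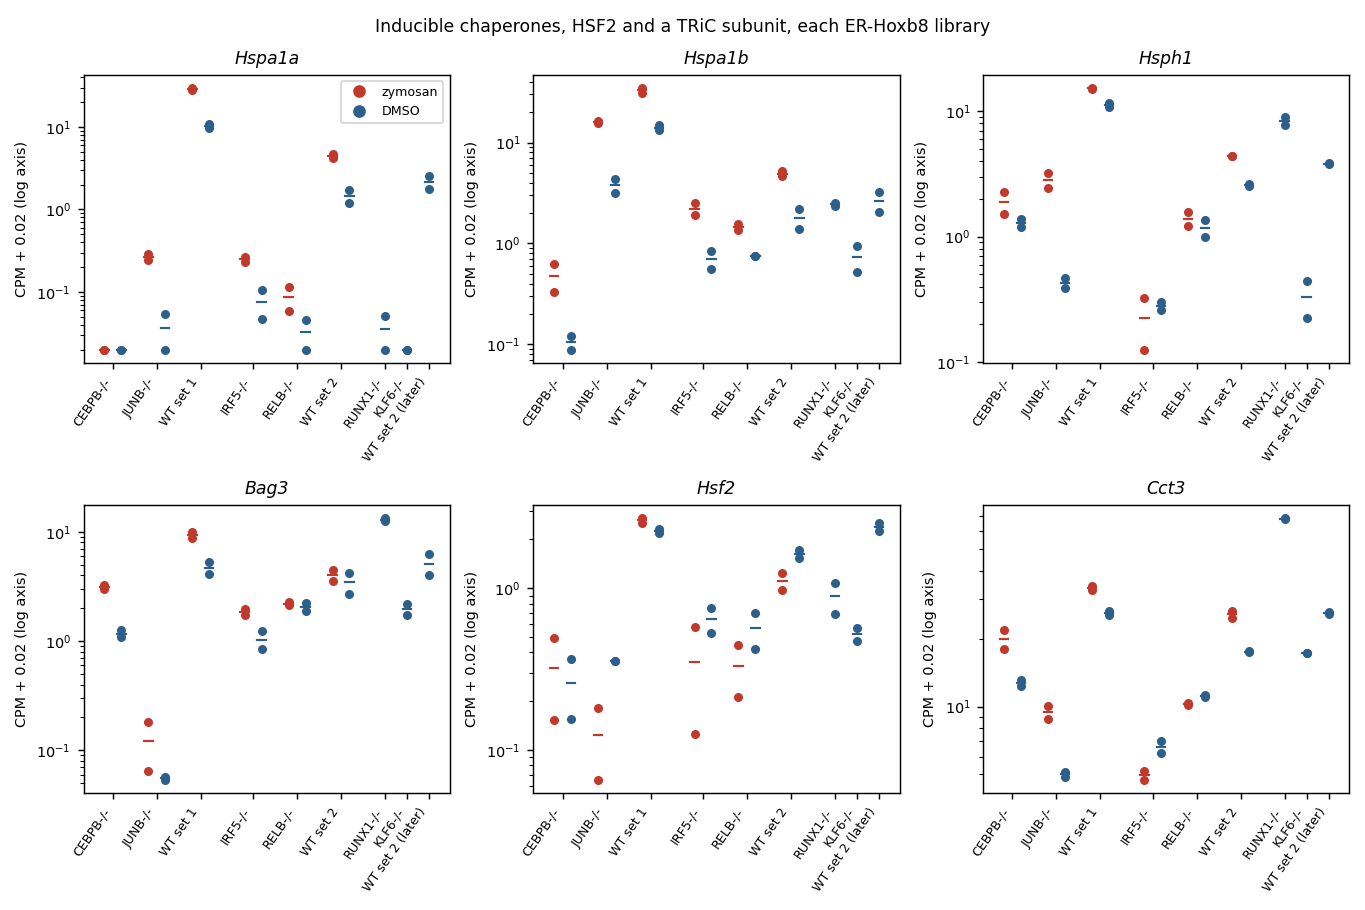
CPM plus 0.02 on log axes of Hspa1a, Hspa1b, Hsph1, Bag3, Hsf2 and Cct3 in every cultured library (red, zymosan; blue, DMSO), with a dash at each group mean. Hspa1a lies near the bottom of its axis in all 6 labelled lines, and Hsph1, Bag3 and Cct3 stand above WT with DMSO in RUNX1-/- cells only.

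Hsph1 and Bag3 were lower in 5 of the 6 lines and higher in RUNX1-/- cells. Hsph1 read 1.18 and 1.37 CPM in CEBPB-/-, 0.369 and 0.445 in JUNB-/- and 11.6 and 10.9 in WT cells of the first set (-3.14 ± 0.16 and -4.78 ± 0.20). It read 0.283 and 0.241 in IRF5-/-, 0.971 and 1.34 in RELB-/- and 2.53 and 2.61 in WT cells of the second (-3.28 ± 0.30 and -1.16 ± 0.22). In the later table it read 8.97 and 7.69 in RUNX1-/-, 0.206 and 0.420 in KLF6-/- and 3.76 and 3.86 in WT cells, higher by 1.12 ± 0.14 in RUNX1-/- and lower in KLF6-/- cells (-3.59 ± 0.30). Bag3 had 1 and 1 counts in the JUNB-/- libraries, against 175 and 205 in WT, a ratio of 132 (36.4 to 1098). Its log2 change was -2.02 in CEBPB-/-, -1.74 in IRF5-/-, -0.75 in RELB-/-, 1.35 in RUNX1-/- and -1.37 in KLF6-/- cells. Hsf2 was lower in all 6 lines, with log2 changes of -3.21 in CEBPB-/-, -2.72 in JUNB-/-, -1.37 in IRF5-/-, -1.57 in RELB-/-, -1.44 in RUNX1-/- and -2.24 in KLF6-/- cells. Hsf1 changed by -0.42, -1.29, -0.37, 0.33, 1.25 and 0.02 in the same order of lines, the last with an edgeR adjusted p of 0.899.

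Counted over all members with DMSO, 22 were higher and 36 lower in CEBPB-/- cells (30.1% and 49.3%, beside 33.6% and 36.9% of all genes). In JUNB-/- cells 21 were higher and 37 lower (28.8% and 50.7%, beside 35.4% and 41.1%). In IRF5-/- cells 13 were higher and 36 lower (17.8% and 49.3%, beside 35% and 29.6%), and in RELB-/- cells 17 and 30 (23.3% and 41.1%, beside 32.1% and 27.3%). RUNX1-/- cells had 46 higher and 17 lower (63.9% and 23.6%, beside 38.2% and 37.1%), and KLF6-/- cells 14 and 39 (19.4% and 54.2%, beside 31.2% and 35%). The members' median log2 change was -0.19, -0.21, -0.26, -0.11, 0.37 and -0.28 in that order of lines, where that of all genes was -0.05, -0.12, 0.04, 0.04, 0.01 and -0.04.

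Total-count scaling moved the median of all genes by -0.35 in CEBPB-/-, -0.55 in JUNB-/-, -0.11 in IRF5-/-, -0.02 in RELB-/-, 0.36 in RUNX1-/- and -0.14 in KLF6-/- cells. It gave splits of 7 higher and 52 lower, 10 and 56, 9 and 45, 16 and 32, 55 and 11, and 6 and 51. No member turned from higher to lower in the IRF5-/-, RELB-/-, RUNX1-/- and KLF6-/- lines, while 4 did in CEBPB-/- and 6 in JUNB-/- cells, and 3 turned from lower to higher in RUNX1-/- cells. The 4 lines of the second set and the later table use the same WT libraries, and the CEBPB-/- and JUNB-/- lines share theirs. Directions of lines with the same WT libraries are therefore not independent.

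The chaperonin ring and HSP90 separated the RUNX1-/- line from the KLF6-/- line. In RUNX1-/- cells 8 of 8 tested CCT subunits, 3 of 3 HSP90 genes and 2 of 2 genes of mitochondrial HSP60 and HSP10 were higher than in WT, and the counts were the same for CCT and HSP90 under total-count scaling. In KLF6-/- cells 1 CCT subunit was higher and 4 lower (0 and 7 under total-count scaling), and 3 of 3 HSP90 and 2 of 2 HSP60 and HSP10 genes were lower. Summed CCT levels averaged 709 CPM in RUNX1-/-, 394 in KLF6-/- and 442 in WT cells. Summed HSP90 averaged 963 CPM in RUNX1-/-, 392.4 in KLF6-/- and 575 in WT cells, and summed HSP70 and HSP110 averaged 1312 in RUNX1-/-, 870.0 in KLF6-/- and 898 in WT cells.

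Cct3, a ring subunit, read 67.6 and 68.6 CPM in RUNX1-/-, 17.2 and 17.3 in KLF6-/- and 25.8 and 26.1 in WT cells, changes of 1.39 ± 0.05 and -0.59 ± 0.07. No library of one group reached the range of another. Hsp90b1 read 349.6 and 337 CPM in RUNX1-/-, 70.3 and 75.1 in KLF6-/- and 174 and 182 in WT cells (0.95 ± 0.03 and -1.29 ± 0.03). Hspa9 read 151 and 154 CPM in RUNX1-/-, 46.7 and 48.6 in KLF6-/- and 68.6 and 65 in WT cells (1.19 ± 0.04 and -0.49 ± 0.04). Hspa8 was higher in RUNX1-/- cells by 0.99 ± 0.03 and changed by -0.02 ± 0.03 in KLF6-/- cells (edgeR adjusted p = 0.557). Hspa5 changed by 0.36 ± 0.02 in RUNX1-/- and by -0.02 ± 0.02 in KLF6-/- cells (adjusted p = 0.521). Of the 19 other ER folding and unfolded protein response genes, 15 were higher and 3 lower in RUNX1-/- cells, and 3 higher and 15 lower in KLF6-/- cells; of the 9 other mitochondrial genes, 8 and 0 in RUNX1-/- and 0 and 5 in KLF6-/- cells. The neutrophil markers summed to 19154 to 19446 CPM in RUNX1-/-, 76479 to 80361 in KLF6-/- and 66847 to 69884 in WT cells, and the MHC class II and dendritic cell list (7 genes) to 324 to 325, 22.2 to 22.3 and 95.9 to 97.3 CPM. Their part in the chaperone differences was not tested.

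**Figure D4:**
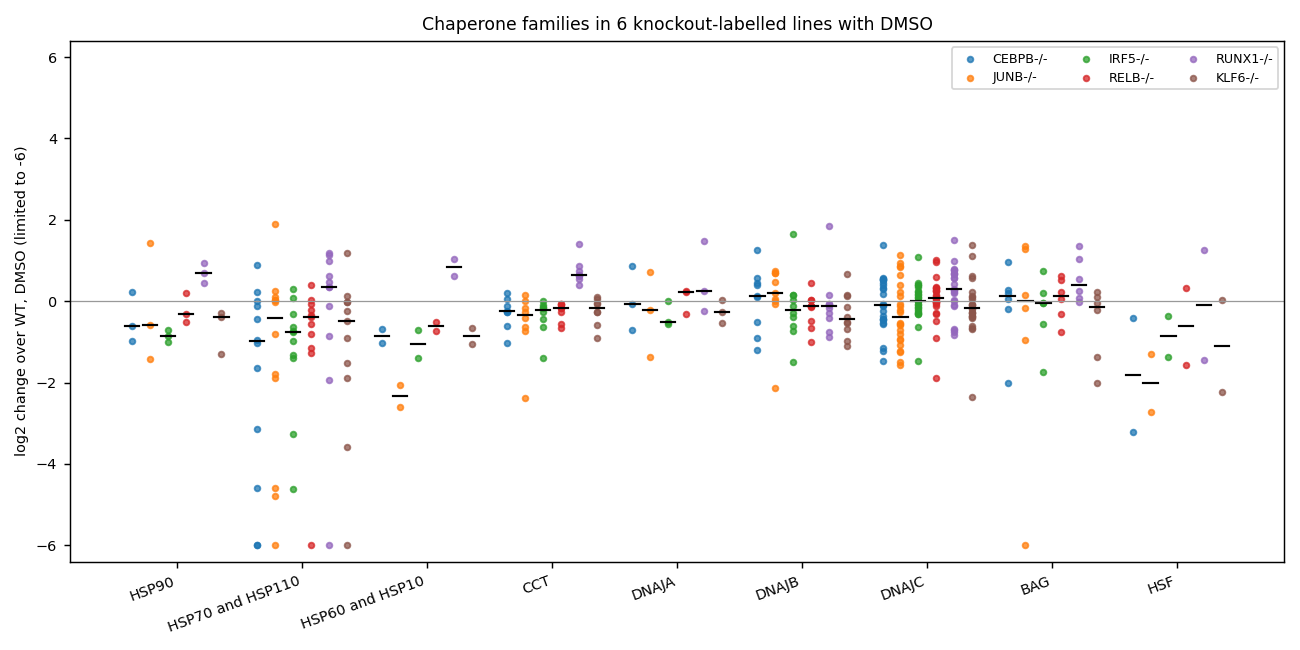
Log2 change over WT with DMSO of tested members in the 6 labelled lines, by family, with black bars at the medians. Values are limited at -6, where genes at or near 0 counts lie and the fitted size is no bound. Hspbp1, Hspbap1 and the small heat shock (Hspb) genes are not shown. The CCT, HSP90 and HSP60 and HSP10 points of RUNX1-/- cells all lie above 0.

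The other lines shared part of this picture. HSP60 and HSP10 were lower in CEBPB-/-, JUNB-/-, IRF5-/- and RELB-/- cells alike, Hspd1 with log2 changes of -0.69, -2.07, -0.72 and -0.52 and Hspe1 with -1.02, -2.60, -1.41 and -0.73. CCT subunits were lower in 6, 6, 5 and 5 of 8 and higher in 1, 1, 0 and 0; under total-count scaling 8, 8, 8 and 5 were lower. Cct3 changed by -1.04, -2.38, -1.41 and -0.66, and Tcp1 by -0.62, -0.42, -0.63 and -0.57. HSP70 and HSP110 members were lower in 9, 6, 9 and 7 and higher in 2, 3, 1 and 1, or lower in 11, 11, 9 and 8 under total-count scaling. Within it, Hspa9 changed by -1.04, -0.81, -0.77 and -0.21 and Hspa4l by -1.64, -1.80, -0.73 and -0.55. Hspa5 was lower in IRF5-/- and RELB-/- cells (-0.62 and -0.34), and its changes of 0.22 in CEBPB-/- and 0.25 in JUNB-/- cells turned negative under total-count scaling.

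Single lines also had rises of their own size. In JUNB-/- cells Hsp90ab1 read 672 and 672 CPM, against 248 and 252 in WT (1.43 ± 0.03), while the inducible Hsp90aa1 was lower (-1.41 ± 0.04). Bag6, which guards tail-anchored membrane proteins, read 313 and 316 CPM in JUNB-/- and 125 and 134 in WT cells (1.28 ± 0.04). In CEBPB-/- cells Dnajb6, which keeps aggregation-prone proteins soluble, read 156 and 163 CPM, against 69 and 64.2 in WT (1.26 ± 0.04). In RUNX1-/- cells Hspbp1, a nucleotide exchange factor of HSP70, read 16.9 and 16.8 CPM, against 4.11 and 3.96 in WT (2.06 ± 0.12), while Hspbp1 was lower in JUNB-/- cells (-2.46). In KLF6-/- cells Dnajc5, the cysteine string protein of secretory vesicles, read 540.5 and 551 CPM, against 253 and 252 in WT (1.11 ± 0.02). The labelled and WT libraries did not overlap in any of these.

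The other members with the largest changes with DMSO were as follows. Hspb11, an intraflagellar transport protein despite its name, had 2 counts in CEBPB-/- cells against 31 in WT, and 1 in IRF5-/- and 1 in RELB-/- cells against 26 in WT, ratios of 11.2 (2.85 to 96.8), 23.4 (3.84 to 958) and 25.8 (4.24 to 1059). Hspa1l was at least 2.17-fold lower in CEBPB-/- and at least 2.09-fold lower in JUNB-/- cells than in WT, calls that were lost without either DMSO library of the line. Dnajb4 was lower in IRF5-/- and RELB-/- cells (-1.49 and -0.99), and Dnajc18 in IRF5-/-, RELB-/- and KLF6-/- cells (-1.47, -1.88 and -2.35), the IRF5-/- call being lost without IRF5-/- DMSO replicate 1 (-1.28) and with DESeq2 (-1.49). Dnajb13, known from cilia and sperm tails, was higher in IRF5-/- (1.65) and RUNX1-/- cells (1.85), but both calls were lost without WT DMSO replicate 2 (1.32 and 1.52) or the second library of the line (1.54 and 1.49) and with DESeq2 (1.67 and 1.84), and the IRF5-/- call with no filter on low counts (1.58). RUNX1-/- cells also had higher Dnajc27 (1.5) and Dnaja3 (1.48) and lower Hspa2 (-1.93). KLF6-/- cells had lower Bag2 (-2.02) and Hspa2 (-1.52) and higher Dnajc28 (1.39), which was also higher in RELB-/- cells (1.02).

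Heat shock elements, the sites that HSF1 and HSF2 bind, were searched in the same promoter windows as 3 alternating units of GAA and TTC, each separated by 2 free bases and starting with either unit, on either strand. They were present in 4 of 75 members (5.33%), namely Hspd1, Hspe1, Dnajb6 and Hsph1, and in 104 of 17492 protein-coding genes (0.595%). A pair of units, GAA and TTC in either order with 2 free bases between them, was present in 21 members (28%) and 2749 genes (15.7%). The first 3 are printed with the element in capitals, because Hspd1 and Hspe1 read the same element in opposite directions and Dnajb6 was higher in CEBPB-/- cells, where Hspd1 and Hspe1 were lower. The match in Hsph1 lies beyond the gene start and is not shown.
Hspd1, chr1:55088039-55088096 (-): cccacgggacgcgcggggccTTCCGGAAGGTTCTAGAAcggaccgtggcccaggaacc
Hspe1, chr1:55088039-55088096 (+): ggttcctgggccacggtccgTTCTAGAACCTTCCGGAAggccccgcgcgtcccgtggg
Dnajb6, chr5:29735832-29735884 (+): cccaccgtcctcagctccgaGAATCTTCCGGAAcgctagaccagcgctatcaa
Hspd1 and Hspe1 had the same direction with DMSO in each of the 6 lines, at 0.63 and 1.05 in RUNX1-/- and -0.65 and -1.06 in KLF6-/- cells.

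In sorted neutrophils no member passed the test, and members that rose with zymosan in WT culture shared no single order of tissues. Of the 31 members called higher in both WT sets 27 were tested here, and the fitted change of exudate over blood was positive for 16 and negative for 11, that of membrane over blood positive for 12 and negative for 15. Hspa5 and Hspa4l are given first as those with high values at the pouch, a choice made after their values were seen. Hspa5 read 977, 788, 453, 340.2 and 0.915 CPM in the exudate libraries, 1396 and 607 in the membrane, 103, 452, 52.9, 74.7 and 117 in blood and 106, 134 and 102 in bone marrow. Of the exudate libraries, 3 lay above all blood and marrow libraries, the third only just, 1 lay below the highest blood library and 1 was near 0, and both membrane libraries lay above all blood and marrow libraries. The log2 change was 1.68 ± 0.96 for exudate over blood (edgeR adjusted p = 0.345), 2.17 ± 1.18 for exudate over bone marrow (adjusted p = 0.267), 2.64 ± 1.15 for membrane over blood (adjusted p = 0.485) and 3.14 ± 1.37 for membrane over bone marrow (adjusted p = 0.372).

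Hspa4l read 168, 131, 270.1, 167 and 0.0763 CPM in the exudate, 325 and 146 in the membrane, 139.9, 64.6, 0.0589, 0.0687 and 0.0481 in blood and 0, 30.5 and 2.34 in bone marrow. The same exudate library was near 0 for both genes, and 3 of 5 blood libraries were near 0, so the ranges overlapped for exudate and blood. The log2 change was 1.84 ± 1.78 for exudate over blood (edgeR adjusted p = 0.61) and 3.75 ± 2.39 for exudate over bone marrow (adjusted p = 0.347). Other members that rose in culture differed among themselves. Dnajb1 averaged 106 CPM in the exudate and 44.8 in blood, with overlapping libraries (1.24 ± 0.92, edgeR adjusted p = 0.48). Hsp90aa1 and Hspa13 were not high in the exudate. Hsp90aa1 read 10.8, 11.3, 27.9, 14.2 and 8.16 CPM in the exudate, 125 and 74.1 in the membrane, 54.3, 4.13, 16.8, 38.8 and 28.1 in blood and 18.6, 42.3 and 16.4 in bone marrow. Hspa13 read 0, 0, 0.861, 17.4 and 0.153 CPM in the exudate, 184 and 42 in the membrane, 56.4, 29.7, 0.0589, 9.0 and 1.2 in blood and 11.4, 3.97 and 34.5 in bone marrow. Both membrane libraries lay above all others for Hsp90aa1 and 1 did so for Hspa13, while the exudate overlapped blood and marrow for both genes, with changes of exudate over blood of -0.98 ± 1.13 (adjusted p = 0.683) and -2.38 ± 1.83 (adjusted p = 0.501). Dnajb9 had its highest value, 173 CPM, in a bone marrow library, against at most 100.2 in the exudate. Cct5, a TRiC subunit, had the reverse order of Hspa4l, with 0.197, 1.69, 0, 0 and 0.305 CPM in the exudate and 102, 9.34 and 48.7 in bone marrow, a change of -6.90 ± 2.45 (adjusted p = 0.135). Hspa8 lay between 25.7 and 526 CPM in the exudate, 16.5 and 95 in the membrane, 31.6 and 57.9 in blood and 46.5 and 93.0 in bone marrow. Hsp90ab1 spanned 0.197, 299.6, 64.6, 142 and 15.4 CPM in the exudate and 11.1, 15.1, 26.6, 9.13 and 239.6 in blood.

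**Figure D5:**
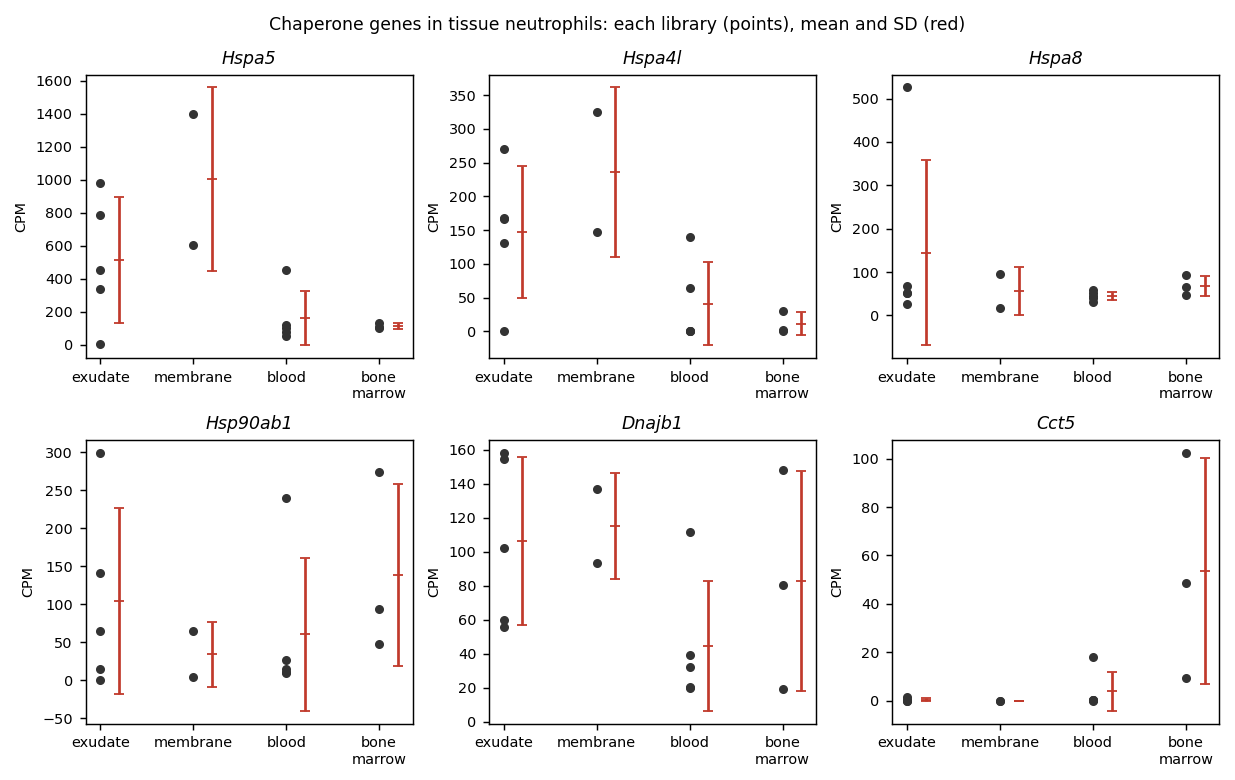
CPM of Hspa5, Hspa4l, Hspa8, Hsp90ab1, Dnajb1 and Cct5 in each sorted library (points) in exudate, membrane, blood and bone marrow, with the mean ± SD in red (n = 5, 2, 5 and 3). Both membrane libraries lie above all blood and marrow libraries for Hspa5. Every gene shown spreads widely in some tissue, though Hspa8 in blood and Hspa5 in bone marrow spread less.

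The number of members called was 0 in each of the 6 tissue comparisons by edgeR. The background was 0% of 12330 genes for exudate over blood, 0.178% (22 genes) for exudate over bone marrow, 0% for membrane over blood, 0.0162% (2 genes) for membrane over bone marrow, 0.0162% (2 genes) for blood over bone marrow and 0% for exudate over membrane. At an unadjusted p under 0.05 the members numbered 12, 15, 7, 10, 3 and 5 of 66 in that order (18.2, 22.7, 10.6, 15.2, 4.55 and 7.58%), beside 19.1, 23.1, 7.81, 13.3, 11.7 and 8.22% of all genes. DESeq2 called 7, 11, 9, 13, 1 and 6 members (10.6, 16.7, 13.6, 19.7, 1.52 and 9.09%), beside 9.79, 13.8, 10.4, 13.8, 2.61 and 7.42% of all genes. Of the members called by DESeq2, 0, 1, 0, 1, 1 and 4 were higher and 7, 10, 9, 12, 0 and 2 lower. The lowest adjusted p of a member was 0.1, for Cct2 in exudate over bone marrow. The biological coefficient of variation was 1.86 in these libraries against 0.019 to 0.0278 in the cultured cells, and Spearman's rho between libraries of one tissue was 0.356 to 0.714, against 0.992 to 0.998 between cultured duplicates. Differences of several fold, such as that of Hspa5, did not pass the test at this precision. Markers of other cells varied with tissue: the MHC class II list summed to 1.14 to 406 CPM in the exudate, 180 to 250.4 in the membrane, 2.95 to 59.4 in blood and 0.057 to 129 in bone marrow, and their part was not tested. In sorted pools, fewer cells with a transcript and less RNA per cell cannot be told apart.

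Chromatin near the gene starts was open for most members. A merged ATAC site lay within 1000 bp of the start of 77 of 92 members (83.7%), against 10610 of 20831 protein-coding genes (50.9%). The authors' deposited lists of differential sites named a site within that distance for 7 members (7.61%), against 1139 genes (5.47%), a share close to the background. These lists compare 2 libraries per tissue in mm10 coordinates and give the authors' -log10 adjusted p.

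Bag5, a BAG protein that binds HSP70, was less accessible than in bone marrow at chr12:111712937-111713458 in all 3 other tissues of the authors' deposited table, with -log10 adjusted p of 11.7 in exudate, 9.49 in membrane and 5.92 in blood. Hspa2 was less accessible than in marrow at chr12:76403498-76404569 in exudate (9.26) and membrane (8.96) in the authors' deposited table. The same table listed less accessible sites in membrane than in marrow at Hspa4 (chr11:53300209-53300866, 6.81) and at Bag3 (chr7:128523283-128523843, 2.55, which spans the start, and chr7:128523936-128524535, 3.48). More accessible in membrane were Dnajc10, an ER reductase with a J domain (chr2:80314872-80315875, over blood, 7.12), and Dnajc14 (chr10:128804268-128804767, over marrow, 2.16), per the authors' deposited table. At Dnaja1 the authors' deposited table listed a site 788 bp before the start (chr4:40720842-40721362) as less accessible in exudate than in blood (3.08). Within 5000 bp of the start the lists named a site for 12 members (13%), against 1982 genes (9.51%). Hspa4l was among the 12, with a site 1688 bp after its start (chr3:40746183-40746778) that the authors' deposited table lists as more accessible in exudate over blood (6.47) and over marrow (11) and in membrane over blood (6.32) and over marrow (10.8). Hspa8 had a site farther before its start (chr9:40798165-40798682), more accessible in exudate over marrow (4.13) in the authors' deposited table. Hspa5 was not among the 12.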

How the data were processed

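Gene counts in 4 deposited tables were made by the authors with STAR and featureCounts, per the submitters' processing notes; the file headers show that uniquely mapped reads (mapping quality 255) were counted, unstranded for sorted cells and reverse-stranded for cultured cells. Differential ATAC site lists hold the authors' -log10 adjusted p-values, and the deposited merged sites hold a score that was not used here; per the submitters' processing notes, Bowtie2, MACS2, deepTools and DESeq2 were used, in mm10 (GRCm38), with versions not given in the sources used here.

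Gene IDs were matched to symbols (99.6% of 50600). Each table was fitted as a whole in edgeR 4.0.16 (R 4.3.3) with TMM scaling and the quasi-likelihood test on genes kept by filterByExpr (count minimum 10, total minimum 15), 12330, 12899, 13779 and 13608 genes in the sorted, first, second and later tables. Benjamini-Hochberg adjustment ran over all of them, a call is an adjusted p under 0.05, and the test was tested on simulated data. CPM values use the TMM-scaled library sizes, with scaling factors of 0.66 to 1.61; RPKM divides them by the gene length of the table. A group at 0 counts was set to a floor of 3 counts, and ratios of 1 to 3 counts have exact 95% intervals, which cover counting error only, since reads carry no molecular identifiers. Groups come from the labels, 18 columns of the first table and 10 of the later one were not used, and no sample was dropped or imputed. The 2 libraries of each cultured group differed beyond the sampling noise of reads (chi-square per degree of freedom 1.65 to 4.93) and were entered as separate samples. That spread does not show that they came from separate cultures.

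The members and lists were chosen with earlier results of these data known. The text names a core panel of 24 members, up to 8 called members with the largest change in each comparison, and, outside that rule and after their values were seen, members such as Hspa4, Dnajb6, Bag6 in JUNB-/- cells, Dnajc5 and Dnajc7. Promoter sequences are RefSeq's, GRCm38.p6, for 75 of 92 members. Alternatives were RLE and total-count scaling, no filter, summed Hspa1a and Hspa1b, DESeq2 1.42.0, only the groups compared, a replicate block, a term for the tag in the sorted cells' column names and leaving out each library. Replicate numbers of the cultured libraries do not pair them: same-numbered libraries' deviations correlated between -0.0385 and 0.0373.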

Additional observations from a re-analysis of the deposited data

Results flagged for a closer look

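Chaperone responses to zymosan that differed from those of WT cells by the interaction test, among the up to 8 members named per line, were flagged as differences between groups; values are differences of log2 changes, line minus WT. In CEBPB-/- cells they were 2.33 for Hspa4l, 1.63 for Dnajc12, 1.48 for Dnajc21, 1.4 for Hspa9, 1.29 for Hspa13, -2.52 for Hspa2, -1.14 for Dnajc9 and -1.10 for Dnajc25. In JUNB-/- cells they were 2.35 for Hsph1, 1.02 for Hspe1, 0.89 for Dnaja1, 0.89 for Hspbap1, 0.89 for Hspa4l, -1.95 for Hsf2, -1.77 for Hspa2 and -1.13 for Dnajc12. In IRF5-/- cells they were 1.25 for Dnajb4, -1.85 for Bag4, -1.80 for Dnajc28, -1.08 for Dnajc27, -0.98 for Dnaja3, -0.98 for Cct3, -0.96 for Cct6a and -0.89 for Hspd1. In RELB-/- cells they were 1.49 for Dnajb4, 0.72 for Hspa4l, -1.63 for Hspb6, -1.09 for Bag4, -1.05 for Dnaja3, -0.82 for Dnajc9, -0.81 for Cct6a and -0.67 for Dnajc17. Hspa4l had a larger response than WT and Dnajc12 opposite differences in the CEBPB-/- and JUNB-/- lines, which share their WT libraries.

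Among the sorted cells, only exudate and blood, with 5 libraries each, were checked for a library far from the rest. Of 24 groups, 12 genes in each of these tissues, 9 held 1 such library. This count is not set against a chance rate, because CPM values spread widely within each tissue and some flags share a library. In the exudate the high libraries were 526 CPM for Hspa8 (median 50.9), 72.4 for Bag1 (median 0) and 1.69 for Cct5 (median 0.197). In blood they were 452 CPM for Hspa5 (median 103), 239.6 for Hsp90ab1 (median 15.1), 112 for Dnajb1 (median 32.1), 100.0 for Dnajb9 (median 11.4), 48.8 for Bag6 (median 9.39) and 18.3 for Cct5 (median 0.412).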

How the results depend on the processing

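Counts of called members changed by under 1.5 times in every cultured comparison under RLE scaling, total-count scaling, no filter, summed Hspa1a and Hspa1b, DESeq2 and only the groups compared, but their split into higher and lower moved with total-count scaling, as given beside each result. In the sorted cells DESeq2 called 7 members for exudate over blood, 11 for exudate over bone marrow, 9 for membrane over blood, 13 for membrane over bone marrow, 1 for blood over bone marrow and 6 for exudate over membrane, where edgeR called 0, shares of 1.52 to 19.7% of the 66 members beside 2.61 to 13.8% of all genes. Without a filter edgeR called 1 for exudate over bone marrow, and a tag term or a block by tag and number left 0. Only exudate and blood hold both tags, so the tag term cannot separate tag from tissue within membrane and bone marrow themselves. Members with a listed ATAC site numbered 12 within 5000 bp, against 7 within 1000 bp, and members with a pair of heat shock units 21, against 4 with 3 units.

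Total-count scaling turned the sign with zymosan in WT cells of the first set for Hspd1 (-0.62), Hspe1 (-0.33), Hsph1 (-0.27), Hsf2 (-0.48), Hsp90b1 (-0.29), Cct2 (-0.41), Cct5 (-0.59), Tcp1 (-0.079) and Bag6 (-0.44). It did so in WT cells of the second set for Hspd1 (-0.69), Hspe1 (-0.71), Dnaja1 (-0.098), Hsph1 (-0.12), Bag3 (-0.65), Hsp90b1 (-0.20), Cct2 (-0.59), Dnajb1 (-0.058), Cct5 (-0.85), Tcp1 (-0.13) and Bag6 (-0.70). The median change of all genes was -0.07 and 0.05 under TMM in the first and second sets, and -0.77 and -0.82 under total-count scaling. Which scaling is closer to the true levels was not tested. Cct5 in the second set, 0.02 as reported, was also negative with RLE scaling (-0.0047), no filter (-0.13), DESeq2 (-0.0051) and only the groups compared (-0.049); the cause was not tested.

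Leaving out each library of the second WT set in turn gave -0.095 to 0.55 for Bag3, -0.13 to 0.023 for Cct5, -0.0014 to 0.18 for Bag6 and -0.093 to 0.23 for Hspe1. The lone library then left in a group is assumed to vary like the other groups. Counts of called members are not given for such cultured fits, because 1 library is left in a group. In the sorted cells, with 1 library left out, 0 members were called for exudate over blood, exudate over bone marrow and blood over bone marrow. All genes called there numbered 0 to 14, 0 to 197 and 0 to 2.

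The replicate block, fitted although the numbers share only a name, gave 57, 56, 57, 59 and 58 called members for zymosan in WT, CEBPB-/- and JUNB-/- cells and for CEBPB-/- and JUNB-/- with DMSO, 30 and 34 for the differences of response in the same lines, 56, 56, 57, 49, 46, 32 and 31 in the same order in the second set, and 62 and 53 for RUNX1-/- and KLF6-/- cells, each within 1.5 times of the count without it. For the sorted cells the block used the tag and number of the column names, some of which recur across tissues, since those names do not carry the replicate numbers of the titles. Depth limits the genes near 0 counts, such as Hspa1a in the labelled lines, to bounds and counting intervals.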
